A study of Mus musculus with 1504 samples.

Results

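Nitric oxide and the natriuretic peptides act on vessels through the same second messenger, cyclic GMP, and 6 genes of that system are described here across the cells of the mouse lung. Nos3 makes nitric oxide, Gucy1a2 encodes a subunit of the enzyme that senses it, Npr1, Npr2 and Npr3 encode the natriuretic peptide receptors, and Pde5a encodes an enzyme that breaks cyclic GMP down. They were taken by name, 6 of the 21947 genes in the deposited table, and all 6 had reads. Single cells of adult C57BL/6 lungs were sorted on a fluorescent reporter into multi-well plates and read by SMART-seq2, which covers whole polyadenylated transcripts and adds no molecular identifiers. The labels name 3 genotypes: Cldn5(BAC)eGFP with 769 cells, in which eGFP follows an endothelial junction gene, Pdgfrb(BAC)eGFP with 374 cells, in which eGFP follows a receptor gene of mural and other stromal cells, and Pdgfrb(BAC)eGFP/NG2dsRed with 361 cells, which adds a dsRed reporter of NG2, a proteoglycan found on pericytes and smooth muscle. All are reporter mice with no treatment named, aged 12 to 15 weeks in the sample labels and 10 to 19 weeks in the design text. The sort chose the cells by reporter, so the shares of the classes below are those of the sorts and not of the lung. No animal, culture or date is named, so each genotype is 1 sample, cells are not replicates, and no test between groups was possible.

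Nitric oxide made in endothelium diffuses to neighbouring cells and switches on soluble guanylyl cyclase, a dimer of an alpha and a beta subunit, which makes cyclic GMP. Atrial and brain natriuretic peptides raise cyclic GMP through Npr1, and C-type natriuretic peptide does so through Npr2, while Npr3, the clearance receptor, takes the peptides up. In the lung cyclic GMP relaxes the pulmonary vessels by way of the kinase Prkg1, and inhibitors of Pde5a, as well as drugs that stimulate the soluble cyclase, are used to treat pulmonary hypertension.

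The column names give 6 sets of cells, each by its own name. EC1, EC2 and EC3 (243, 275 and 251 cells) were taken as the Cldn5-eGFP cells. Mural1, Mural2 and Mural3 (128, 233 and 374 cells) carry no reporter in their names and were used under these names. Mural1 and Mural2 together hold 361 cells, as many as the Pdgfrb(BAC)eGFP/NG2dsRed labels, and were pooled on this ground. Mural3 holds as many as the Pdgfrb(BAC)eGFP labels. No name ties a set to a genotype, so set and reporter cannot be told apart where mural sets are compared. The sets are not labelled as replicates, and they give the only spread available. The cells held 100229 to 609242 reads each, with a median of 240178. No 2 cells had identical counts, and 377 of the 384 well names occurred in more than 1 set. Cells were clustered without the 6 genes, without a list of 80 genes of the same system and without a random share of the other genes, and 10 of 11 clusters were named from marker genes. This gave 658 general capillary-like cells and 76 aerocyte-like cells, the capillary endothelial types of the lung, with 22 lymphatic-like, 68 pericyte-like, 69 smooth muscle-like, 402 fibroblast-like and 44 chondrocyte- or perichondrial-like cells. The remaining 165 cells, rich in epithelial and leukocyte genes, were left unnamed. Of these, 85 lay in Mural2, 60 in Mural3 and 5 in each other set. Endothelial cells came from the EC sets except for 2 general capillary-like cells of Mural1. Pericyte- and smooth muscle-like cells came from Mural1 and Mural2 except for 1 of each in Mural3, which held 312 of the 402 fibroblast-like cells. Read depth differed between classes, with medians from 142392 in pericyte-like to 371086 in fibroblast-like cells, so every cell was thinned to 50000 reads before cells with a read were counted. Levels are in CPM, the reads of a gene summed over all cells of a class and scaled by the total reads of those cells. The 95% intervals (exact Poisson for levels, Clopper-Pearson for shares, conditional for folds) cover counting error only. Markers of other cell types were present in some classes: the 12 alveolar epithelial markers summed to 2151 CPM in pericyte-like cells (152 and 3556 in the lowest and highest set) and to 3589 CPM in smooth muscle-like cells (125 and 4871). The 7 cardiomyocyte markers summed to 11811 CPM in smooth muscle-like cells (7655 and 13532) and to at most 55.6 CPM in the other named classes. Of the smooth muscle-like cells 8.70% held reads of at least 5 endothelial and at least 5 mural or fibroblast markers, against at most 2.27% in the other named classes. Of the unnamed cells 37.6% did. The part of these markers in the results below was not tested. Leaving out the cells with both endothelial and mural or fibroblast markers changed no count of genes past the size rule defined below, a step that does not take out cells by epithelial or cardiomyocyte markers.

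**Figure D1:**
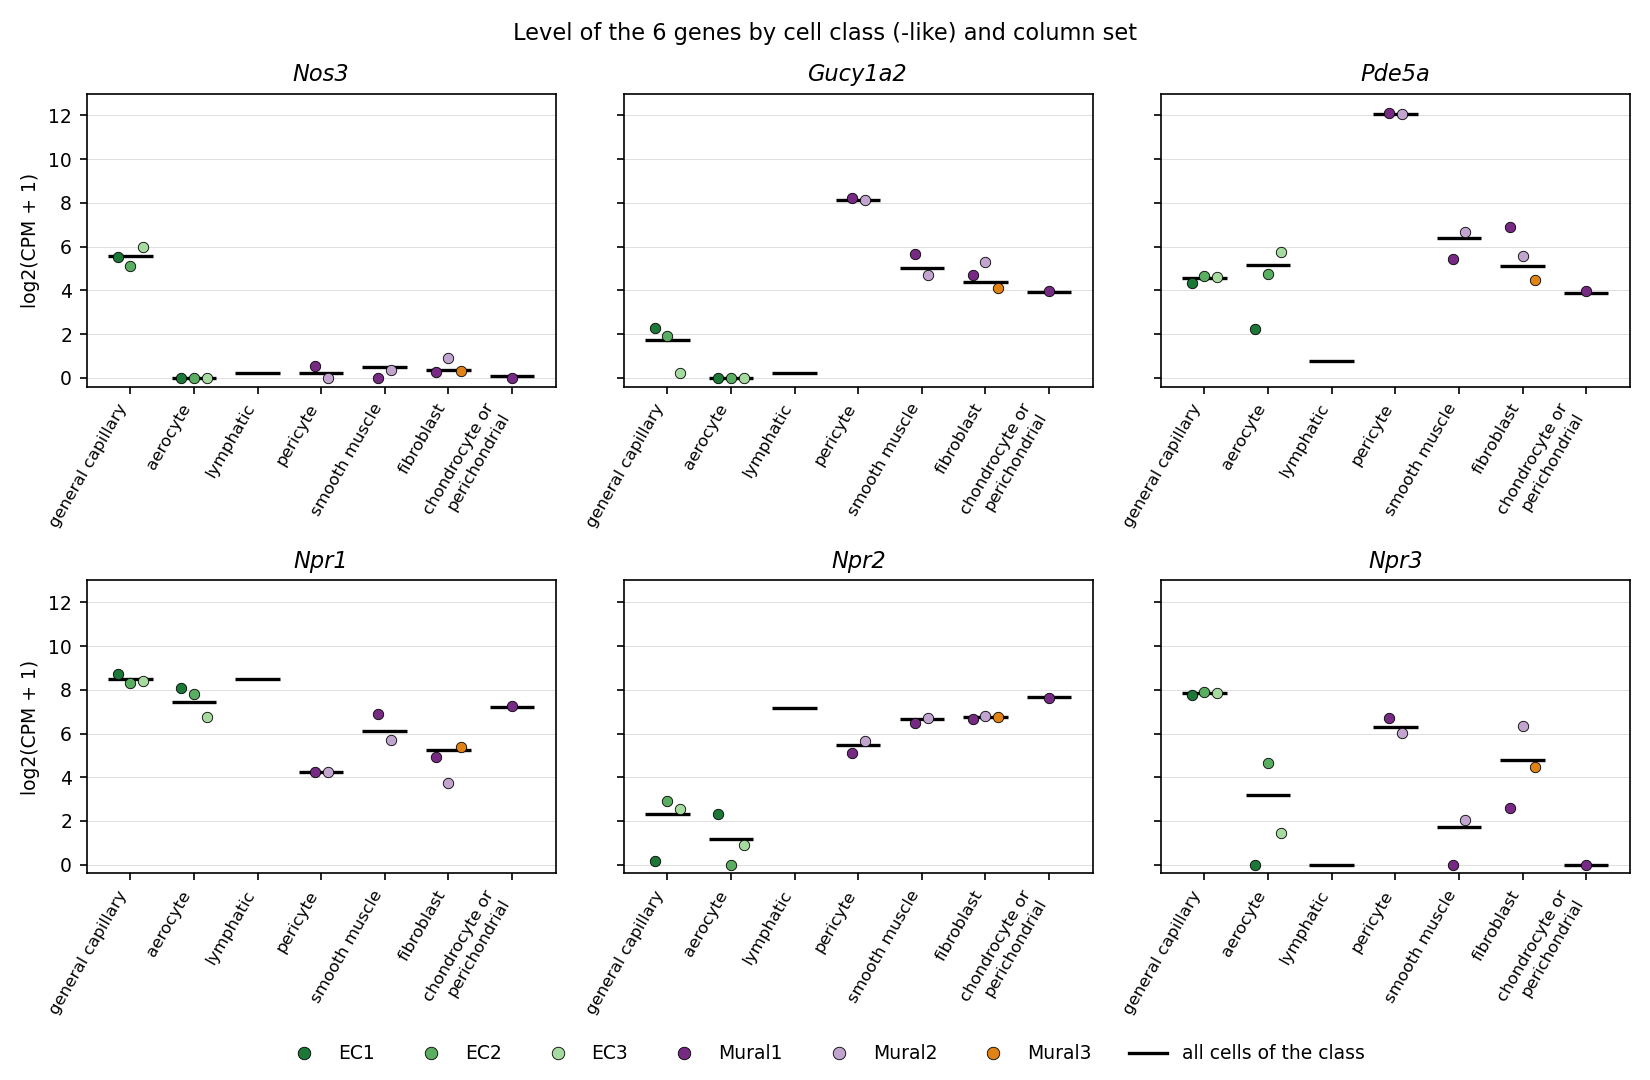
Level of each of the 6 genes, as log2(CPM + 1), by cell class; points are column sets with at least 10 cells of the class and bars all cells of the class. Nos3 stands at 47.0 CPM in general capillary-like cells and below 0.5 CPM in every other named class, and Pde5a at 4225 CPM in pericyte-like cells against at most 84.1 CPM in the other named classes.

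Nos3, the endothelial nitric oxide synthase (GRCm38 chr5:24364810-24384474, plus strand), was found in 1 endothelial class. Of its 6325 reads 96.8% lay in general capillary-like cells, which were 43.8% of all cells. There it reached 47.0 CPM (95% interval 45.8 to 48.2), with 44.4 CPM in EC1, 33.7 in EC2 and 62.4 in EC3. All 3 endothelial sets stood far above any set of another named class, the highest of which was 0.851 CPM in the fibroblast-like cells of Mural2. The unnamed cells of Mural2 held 6.58 CPM, with a read in 10.6% of them. A read was found in 14.0% of general capillary-like cells (11.4 to 16.9%), against 1.47% of pericyte-like cells, 1.45% of smooth muscle-like cells and 1.24% of fibroblast-like cells, classes that should lack the gene. None of the 76 aerocyte-like cells held a Nos3 read, thinned or not, at a median depth of 331822 reads per cell against 192168 in general capillary-like cells. The 95% intervals reach up to 0.153 CPM for the 0 reads and up to 4.74% of cells for the 0 of 76 cells. Lymphatic-like cells held 1 Nos3 read in all. In the 7 sub-clusters of the general capillary-like cells Nos3 ranged from 23.8 to 58.7 CPM, with a median of 49.6, so every sub-cluster held it. Both ends of this range leaned on 1 cell, which gave 52.5% of the reads in the lowest sub-cluster and 62.5% in the highest. None of these sub-clusters stood apart by the arterial or venous markers. Arterial markers had a read in 27.1 to 30.6% of marker and cell pairs, and venous markers in 6.93 to 11.8%. The larger general capillary-like cluster, with 385 cells, had 2 arterial markers, Sox17 and Hey1, among its leading genes. Nos3 was 43.1 CPM there and 52.3 CPM in the other, with 273 cells. In Mural1, 127 of the 132 Nos3 reads lay in its 2 general capillary-like cells. Nos3 shares exon bases with Atg9b on the opposite strand, and in unstranded reads the reads of the shared stretch cannot be told apart.

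Gucy1a2, the alpha-2 subunit of soluble guanylyl cyclase (GRCm38 chr9:3532778-3894736, plus strand), was highest in the pericyte-like cells. Its level there was 282 CPM (272 to 292), with 299 CPM in Mural1 and 280 in Mural2, and 63.2% of the cells held a read. Smooth muscle-like cells followed with 31.3 CPM, 49.0 in Mural1 and 25.3 in Mural2, and 29.0% of cells. Fibroblast-like cells stood at 19.5 CPM, with 25.2 in Mural1, 38.2 in Mural2 and 16.0 in Mural3, a range that overlaps that of the smooth muscle-like cells. The sets of the pericyte-like cells overlapped with no other class. General capillary-like cells held 2.30 CPM, of which 42.3% of the reads came from 1 cell, and aerocyte-like cells had 0 reads.

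The other alpha subunit, Gucy1a3 (Gucy1a1 in current annotation), and the beta subunit Gucy1b3 (Gucy1b1), with which either alpha subunit pairs, were likewise highest in pericyte-like cells and next in smooth muscle-like cells. Gucy1a3 reached 7832 CPM in pericyte-like cells, 8622 in Mural1 and 7561 in Mural2, then 637 CPM in smooth muscle-like, 50.7 in fibroblast-like and 10.2 in general capillary-like cells. Gucy1b3 reached 3037 CPM in pericyte-like and 480 CPM in smooth muscle-like cells, against 18.8 and 16.4 CPM in fibroblast- and general capillary-like cells. Per kilobase of exon, which allows genes to be compared, pericyte-like cells held 1124 CPM of Gucy1a3, 773 of Gucy1b3 and 42.4 of Gucy1a2. The beta subunit stood between the 2 alpha subunits, of which Gucy1a2 was the lower. In smooth muscle-like cells the values per kilobase were 91.4 for Gucy1a3, 122 for Gucy1b3 and 4.71 for Gucy1a2. Gucy1b2 did not exceed 0.898 CPM in any named class.

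The 3 natriuretic peptide receptors ordered the classes differently: Npr1 was highest in lymphatic- and general capillary-like cells, Npr2 in chondrocyte- or perichondrial-like cells and Npr3 in general capillary-like cells. They also shared classes, since lymphatic-like and chondrocyte- or perichondrial-like cells both held over 140 CPM of Npr1 and of Npr2. Without the cell richest in each gene, lymphatic-like cells held 283 CPM of Npr1 and 86.1 of Npr2. Chondrocyte- or perichondrial-like cells then held 123 and 189 CPM. To set the receptors side by side, the 250 bases before each RefSeq transcription start (GRCm38.p6) are shown, 5′ to 3′ along the gene. For Npr1 (chr3:90465867-90466116, minus strand) the capitals mark 2 matches to the GC box GGGCGG read on the other strand, one of 7 motifs searched. For Npr3 (chr15:11907372-11907621, minus strand) they mark 1 match to TGACG, the core of the cAMP response element. Npr2 (chr4:43631685-43631934, plus strand) held no match to any motif searched.
Npr1: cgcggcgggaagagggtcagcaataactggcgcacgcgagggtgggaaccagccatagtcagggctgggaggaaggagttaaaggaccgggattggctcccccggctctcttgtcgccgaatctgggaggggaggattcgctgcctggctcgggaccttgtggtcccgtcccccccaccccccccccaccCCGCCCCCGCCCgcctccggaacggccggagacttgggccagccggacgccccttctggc
Npr2: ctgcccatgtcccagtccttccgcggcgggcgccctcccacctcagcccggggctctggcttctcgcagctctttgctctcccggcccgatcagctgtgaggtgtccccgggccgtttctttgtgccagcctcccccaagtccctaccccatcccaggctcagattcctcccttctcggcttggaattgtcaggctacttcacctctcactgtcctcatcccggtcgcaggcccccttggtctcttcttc
Npr3: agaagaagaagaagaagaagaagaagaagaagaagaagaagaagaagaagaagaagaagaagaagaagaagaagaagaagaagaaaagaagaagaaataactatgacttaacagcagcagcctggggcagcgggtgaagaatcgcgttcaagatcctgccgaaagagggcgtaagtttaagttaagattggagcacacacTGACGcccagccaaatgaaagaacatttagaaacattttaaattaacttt
The motifs were searched on both strands, with the share of the 32851 RefSeq promoter windows that hold each: TATAAA 12.4%, GGGCGG 32.7%, CACCC 52.0%, CACGTG 6.02%, TGACG 17.8%, TGGGAA 21.6% and CCGGAA 12.0%. The Npr1 window also held 3 matches to CACCC, 1 to TGGGAA and 1 to CCGGAA, and the Npr3 window 1 to CACCC. G and C made up 70.4% of the Npr1 window, 64.4% of the Npr2 window and 38.8% of the Npr3 window, against a median of 52.4% over all windows. A purine repeat fills the upstream stretch of the Npr3 window, whose start was not matched to an annotated transcript. A match is a run of letters and not a measured site. Annotated antisense transcripts overlap exons of each of the 3 genes (Gm16048, Gm12473 and Gm5144), and unstranded reads from either strand cannot be told apart. Promoter windows were found for 5 of the 6 genes, and only those of the 3 receptors are printed.

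Npr1, the cyclase receptor for atrial and brain natriuretic peptide (GRCm38 chr3:90450591-90465866, minus strand), was the member most widely found in endothelium. General capillary-like cells held 356 CPM (353 to 360), with 422 CPM in EC1, 320 in EC2 and 335 in EC3, and 59.0% of the cells had a read. The 22 lymphatic-like cells held 363 CPM (348 to 379) with reads in 59.1% of cells, from 401, 1062 and 659 reads in EC1, EC2 and EC3. One lymphatic-like cell gave 26.2% of these reads, and the level without it was 283 CPM. Aerocyte-like cells held 175 CPM, with 268 in EC1, 223 in EC2 and 106 in EC3, so every set of aerocyte-like cells lay below every set of general capillary-like cells. Outside endothelium the highest level was 145 CPM in chondrocyte- or perichondrial-like cells, 50.0% of which had a read. Smooth muscle-like cells held 67.8 CPM, 118 in Mural1 and 50.6 in Mural2, and 27.3% of those reads came from 1 cell. Fibroblast-like cells held 36.7 CPM, with 29.7, 12.4 and 41.3 in Mural1, Mural2 and Mural3. The lowest level was that of pericyte-like cells, 17.6 CPM, with 17.7 in Mural1 and 18.2 in Mural2. In the sub-clusters of the general capillary-like cells Npr1 ranged from 258 to 424 CPM.

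Npr2, the cyclase receptor for C-type natriuretic peptide (GRCm38 chr4:43631935-43651244, plus strand), is known for its role in growth-plate cartilage. It was highest in chondrocyte- or perichondrial-like cells, at 201 CPM (194 to 209) and in 54.5% of cells. Nearly all of these cells came from Mural1, where the level was 194 CPM. Fibroblast-like cells held 108 CPM (106 to 110), with 99.7 in Mural1, 111 in Mural2 and 108 in Mural3. They were 26.7% of all cells, with the highest median depth of the classes, and gave 62.0% of all Npr2 reads. Smooth muscle-like cells held 99.4 CPM, with 89.0 in Mural1 and 105 in Mural2, which overlaps the fibroblast-like sets. Pericyte-like cells held 43.0 CPM, 34.1 in Mural1 and 49.8 in Mural2, below every smooth muscle-like set. One pericyte-like cell gave 43.7% of these reads, and the level without it was 24.6 CPM. The capillary classes were near the bottom, with 4.03 CPM in general capillary-like cells (0.120, 6.60 and 4.84 in EC1, EC2 and EC3) and 1.24 CPM in aerocyte-like cells. Lymphatic-like cells held 141 CPM, but 1 cell gave 43.5% of their reads and the level without it was 86.1 CPM. By set they held 168, 1 and 658 Npr2 reads in EC1, EC2 and EC3.

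Npr3, the clearance receptor, which lacks the cyclase domain (GRCm38 chr15:11839896-11907287, minus strand), divided the capillary endothelium. General capillary-like cells held 230 CPM (227 to 232), with 217 in EC1, 234 in EC2 and 233 in EC3, and 36.6% of the cells had a read. Aerocyte-like cells held 8.21 CPM, with 0, 24.5 and 1.77 in EC1, EC2 and EC3. One aerocyte-like cell gave 74.2% of those reads, and without it the level was 2.15 CPM. Lymphatic-like cells had no Npr3 read, with an interval up to 15.4% of cells, a loose limit for 22 cells. Pericyte-like cells came second with 78.0 CPM (73.0 to 83.3), 102 in Mural1 and 64.4 in Mural2, and 26.5% of cells. Fibroblast-like cells held 26.6 CPM with a wide spread, 4.94 in Mural1, 79.0 in Mural2 and 21.2 in Mural3. Smooth muscle-like cells held 2.27 CPM, 80.0% of it from 1 cell, and chondrocyte- or perichondrial-like cells had 0 reads. Among the sub-clusters of general capillary-like cells Npr3 ranged from 77.9 to 345 CPM.

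Pde5a, which hydrolyses cyclic GMP (GRCm38 chr3:122728947-122859374, plus strand), reached the highest level per kilobase of exon of the 6 genes in any named class. Pericyte-like cells held 4225 CPM (4187 to 4263), with 4363 in Mural1 and 4270 in Mural2. A read was found in 97.1% of them, and the quartiles over cells were 2592, 4296 and 5915 CPM, so the level was high in most cells and not in a few. These 4.52% of all cells gave 76.5% of the 62554 Pde5a reads. Smooth muscle-like cells held 84.1 CPM, 41.6 in Mural1 and 101 in Mural2, with reads in 39.1% of cells. Every other named class lay below this: 34.2 CPM in aerocyte-like, 33.2 in fibroblast-like, 22.4 in general capillary-like, 13.8 in chondrocyte- or perichondrial-like and 0.684 in lymphatic-like cells. Their sets overlapped where both classes had several. Aerocyte-like cells held 3.76, 25.5 and 52.5 CPM in EC1, EC2 and EC3. The unnamed cells held 98.7 CPM, with 178 in Mural2 and 29.2 in Mural3. An annotated transcript, 4930447N08Rik, overlaps Pde5a exons on the opposite strand, and its reads cannot be told apart.

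**Figure D2:**
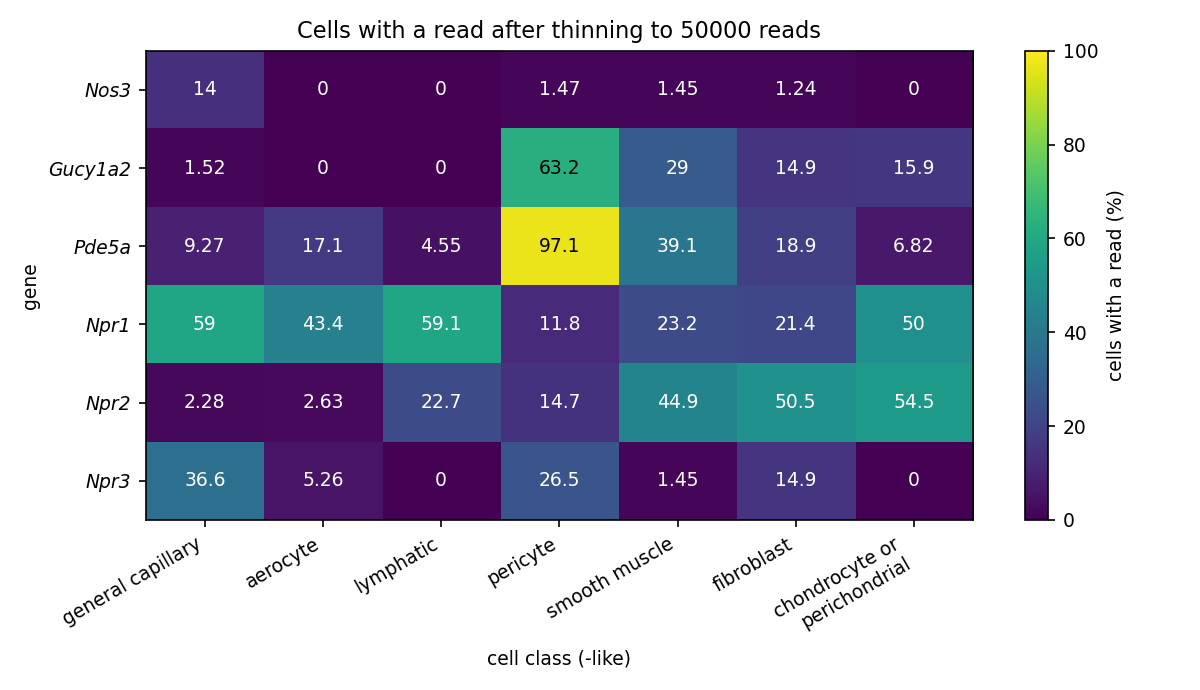
Percent of cells of each class with a read of each gene after thinning to 50000 reads, with the value printed in each field. Pde5a was read in 97.1% of pericyte-like cells, Npr1 in 59.0% of general capillary-like cells and Npr2 in 50.5% of fibroblast-like cells.

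Compared per kilobase of exon, Npr1 led the 6 genes in general capillary-like cells with 74.5 CPM, followed by Npr3 with 24.5, Nos3 with 11.4, Pde5a with 2.28, Npr2 with 0.863 and Gucy1a2 with 0.346. In pericyte-like cells Pde5a led with 430 CPM per kilobase, followed by Gucy1a2 with 42.4, Npr2 with 9.21, Npr3 with 8.31 and Npr1 with 3.69. Fibroblast-like cells held 23.1 CPM per kilobase of Npr2 and 7.68 of Npr1. In smooth muscle-like cells Npr2 stood at 21.3 and Npr1 at 14.2, above Pde5a with 8.56 and Gucy1a2 with 4.71. Npr2 led in chondrocyte- or perichondrial-like cells with 43.1, beside 30.3 for Npr1, and Npr1 led in lymphatic-like cells with 75.9, beside 30.3 for Npr2.

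The first comparison asked how the sorted sets differ, with all Cldn5-eGFP cells set against all cells of Mural1 and Mural2. Unnamed cells were included, among them 85 of the 233 cells of Mural2, so the sides are not single cell types. The natriuretic receptors Npr1 and Npr3 were higher in the Cldn5-eGFP cells and Gucy1a2, Npr2 and Pde5a were lower, while Nos3 was higher but too seldom read to count. A gene passed the size rule, which stands in for a test here, when the side with more of it reached 50 CPM and a read in 25% of cells and the fold was 4 or more. By this rule 5 of the 6 passed, where 4.24% of all genes passed in either direction (930 of 21947). Npr1 was 323 CPM against 59.3, a fold of 5.45 (5.31 to 5.60), and Npr3 was 183 CPM against 31.6, a fold of 5.78 (5.56 to 6.00). Gucy1a2 was 58.2 CPM in Mural1 and Mural2 against 1.87, 31.2-fold higher there, Pde5a was 577 CPM against 23.5, 24.5-fold higher, and Npr2 was 105 CPM against 9.18, 11.4-fold higher. Nos3 was 36.7 CPM against 2.93, a fold of 12.5 (11.1 to 14.2). The 3 EC sets and the 2 mural sets did not overlap for any of these 6 genes. Without Mural2 the log2 difference of Npr1 was 1.98, just under the fold of 4.

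Against Mural3, which held mostly fibroblast-like cells, Npr1 and Npr3 were again higher in Cldn5-eGFP cells and Npr2 again lower, and Pde5a was close to equal. Of the 6 genes 3 passed, where 4.62% of all genes did (1014 of 21947, 448 of them higher in Cldn5-eGFP cells and 566 lower). With median-ratio scaling that split was 358 higher and 715 lower. Both whole-sort comparisons share the Cldn5-eGFP cells, and both include unnamed cells, 60 of them in Mural3. Npr1 was 323 CPM against 43.9, a fold of 7.37 (7.18 to 7.57), and Npr3 was 183 CPM against 20.8, a fold of 8.81 (8.47 to 9.16). Npr2 was 103 CPM in Mural3 and 11.3-fold higher there. Nos3 was 36.7 CPM against 0.306, a fold of 120 (88.4 to 167), and Gucy1a2 was 8.55-fold higher in Mural3 at 16.0 CPM, both under the 50 CPM that the rule asks for. Pde5a was 23.5 CPM against 22.3, a ratio of 1.06 (1.01 to 1.11) whose direction turned under TMM and median-ratio scaling, to log2 differences of -0.35 and -0.38.

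The next comparison set the capillary endothelial types against each other. General capillary-like cells held 28.0 times as much Npr3 as aerocyte-like cells (24.3 to 32.3), the only 1 of the 6 genes to pass. Here 0.905% of the 10938 genes that the clustering had not used passed (99 genes, 48 higher and 51 lower in general capillary-like cells, or 41 and 67 with median-ratio scaling). Nos3, at 47.0 CPM against 0 reads, was at least 378-fold higher, and Gucy1a2, at 2.30 CPM against 0 reads, at least 18.5-fold higher, both with a floor of 3 reads over the aerocyte-like cells and both under 50 CPM. The bound of Gucy1a2 was 10.7-fold without the cell richest in it, where the level was 1.33 CPM, and EC3 held 0.171 CPM. Npr1 was 2.04-fold higher (1.97 to 2.10) in general capillary-like cells. Npr2 was 3.24-fold higher there, but its sets overlapped and ran the other way in EC1, with 0.120 CPM in general capillary-like and 3.96 CPM in aerocyte-like cells. A read of Npr2 was found in 2.28% and 2.63% of these cells, and 1 cell gave 37.3% and 66.7% of the reads. The Npr2 fold was 11.2 without EC1 and 1.44 without EC2. Pde5a was 1.53-fold higher in aerocyte-like cells, and without EC3 it was higher in general capillary-like cells instead, with a log2 difference of 0.40.

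General capillary-like cells were then set against pericyte-like cells, another cell type of the capillary wall. Pde5a was 189-fold and Gucy1a2 123-fold higher in pericyte-like cells. Npr1 was 20.2-fold higher in general capillary-like cells (17.6 to 23.3). These 3 passed of 6, where 3.93% of genes passed (430 of 10938). Nos3 was 266-fold higher in general capillary-like cells, with a wide interval (73.7 to 2198) since pericyte-like cells held 2 reads. Npr2 was 10.7-fold higher in pericyte-like cells but read in only 14.7% of them. Npr3 differed least, 2.94-fold (2.75 to 3.15), and these classes had the highest Npr3 levels of all, although the Mural2 sets of pericyte- and fibroblast-like cells overlapped.

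Within the mural cells, the pericyte-like cells held more of 3 members than the smooth muscle-like cells. Pde5a was 50.2-fold higher (47.8 to 52.8), Npr3 34.3-fold (25.4 to 47.4) and Gucy1a2 9.01-fold (8.27 to 9.84). These 3 passed, where 4.28% of genes passed (468 of 10938). The cyclase receptors ran the other way, with Npr1 3.84-fold and Npr2 2.31-fold higher in smooth muscle-like cells, neither past the fold of 4. One pericyte-like cell gave 38.5% of the Npr1 reads there and 1 gave 43.7% of the Npr2 reads. Without these cells the folds were 6.03 for Npr1, read in too few smooth muscle-like cells to pass, and 4.05 for Npr2, which then passed. These folds left the smooth muscle-like side whole. Without its own richest cells that side held 50.5 CPM of Npr1 and 90.5 of Npr2, beside 11.2 and 24.6 CPM in pericyte-like cells without theirs. With both sides trimmed alike, Npr2 stayed under the fold of 4 and Npr1 above it. Smooth muscle-like cells also held the cardiomyocyte markers given above, whose part in the Npr1 and Npr2 levels was not tested.

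Pericyte- and smooth muscle-like cells together were set against the fibroblast-like cells, the other main population that the Pdgfrb reporter labels. Pde5a was 1592 CPM against 33.2, 48.0-fold higher (46.6 to 49.5), and Gucy1a2 was 123 CPM against 19.5, 6.27-fold higher (5.97 to 6.59). These were the 2 of 6 genes to pass, where 3.06% of genes did (335 of 10938, 204 higher and 131 lower, or 143 and 188 with TMM scaling). Pericyte-like cells alone held 4225 CPM of Pde5a and 282 of Gucy1a2. Smooth muscle-like cells held 84.1 and 31.3 CPM, and their sets overlapped those of the fibroblast-like cells for both genes. The 3 receptors differed little when the mural classes were pooled. Npr2 was 1.37-fold higher in fibroblast-like cells. Npr1 and Npr3 differed by log2 values of 0.43 and 0.17 that turned to -0.04 and -0.31 under TMM scaling. The pooled classes lay on opposite sides of the fibroblast-like level for Npr1 and Npr3. Npr3 was 78.0 CPM in pericyte-like and 2.27 in smooth muscle-like cells, around 26.6 in fibroblast-like cells. For Npr1 these levels were 17.6 and 67.8 CPM, around 36.7. Without the Mural3 cells the log2 difference of Gucy1a2 was 1.94, short of the fold of 4.

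**Figure D3:**
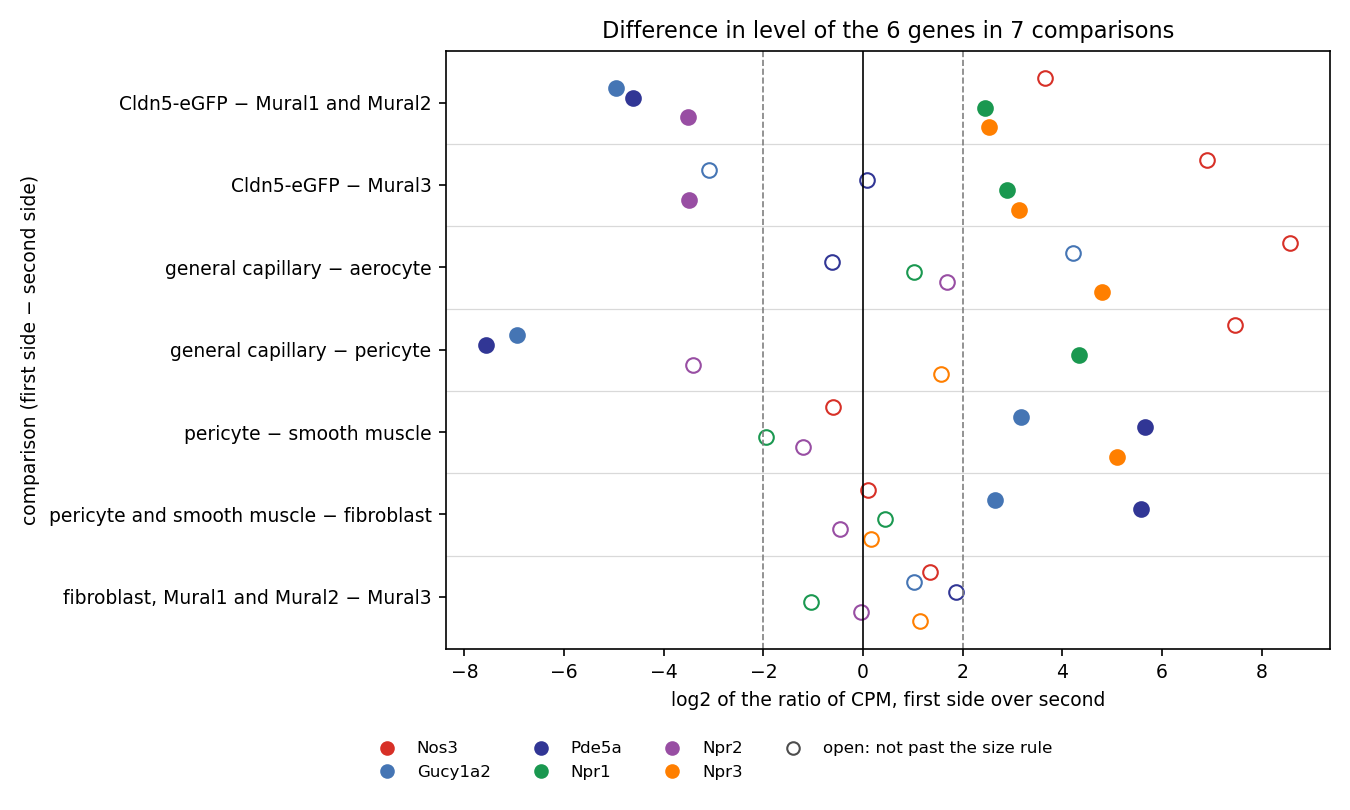
Log2 ratio of CPM, first side over second, of the 6 genes in 7 comparisons; filled points passed the size rule, open points did not, and dashed lines mark a fold of 4. Nos3 and Gucy1a2 against aerocyte-like cells are lower bounds, with 0 reads set to 3, and the 2 Nos3 reads of pericyte-like cells are also drawn as 3. Npr1 and Npr3 lie to the right in both whole-sort comparisons and Pde5a lies farthest left for general capillary-like against pericyte-like cells.

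Fibroblast-like cells were found in all 3 mural sets, and their levels were compared between Mural1 with Mural2 (90 cells) and Mural3 (312 cells). None of the 6 genes passed the rule, where 0.146% of genes did (16 of 10938). Npr2 was 106 CPM against 108, a ratio of 0.976 (0.939 to 1.01), whose interval includes equal levels. Pde5a was 76.9 CPM against 21.2, a fold of 3.63 (3.43 to 3.84), and the Mural1 cells at 117 CPM and the Mural2 cells at 45.9 CPM both lay above the Mural3 cells. One cell gave 40.1% of the reads in Mural1, and the level there without it was 71.4 CPM. Without Mural2 the log2 difference of Pde5a was 2.46 and it passed. Gucy1a2 was 2.03-fold and Npr3 2.20-fold higher in Mural1 and Mural2, and Npr1 2.07-fold higher in Mural3. For Npr3 this rested on Mural2, and without that set the log2 difference was -2.10. The 11 pericyte markers summed to 1980 CPM in the fibroblast-like cells of Mural1, 1638 in Mural2 and 679 in Mural3, none of the 11 at 0 in any of the 3. They include Pdgfrb and Cspg4, the gene of NG2, which the reporters follow. Their part in these differences was not tested, and set and reporter cannot be told apart here.

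The fibroblast-like cells fell into 3 clusters. Cluster 10, led by Col28a1, Gper1 and Ch25h, held 96.4 CPM of Pde5a and 91.4 of Npr3, against 28.6 and 19.2 in the large cluster 2 and 7.14 and 20.4 in cluster 9. The cell richest in Pde5a gave 45.2% of its reads in cluster 10 and the cell richest in Npr3 25.8%, and the levels without these cells were 53.9 and 70.0 CPM. In cluster 9 such cells gave 72.6% and 45.5%, and the levels without them were 2.01 and 11.4 CPM. Npr1 was 44.2 CPM in cluster 2, 9.86 in cluster 9 and 7.30 in cluster 10, with 78.2% and 92.6% of the reads of clusters 9 and 10 in 1 cell. Npr2 was spread evenly, with 104, 118 and 129 CPM in clusters 2, 9 and 10. Gucy1a2 was 20.9, 13.9 and 14.8 CPM. Within cluster 2, Pde5a was 54.4 CPM in Mural1 and Mural2 and 21.4 in Mural3. Within cluster 10 it was 199 CPM in the 16 cells of Mural1 and Mural2 and 39.9 in the 27 cells of Mural3, but 61.7% of the former came from 1 cell and the level without it was 81.2 CPM. Npr3 in cluster 10 was 156 and 56.0 CPM on those sides, with 42.7% of the former from 1 cell and 98.1 CPM without it. The pericyte markers summed to 4612 CPM in cluster 10 cells of Mural1 and Mural2 and 988 CPM in those of Mural3. In cluster 2 these sums were 1216 and 596 CPM. Smooth muscle markers summed to 2738 and 1460 CPM on those sides of cluster 10, against 339 and 276 CPM in cluster 2. The part of these markers in the levels of cluster 10 was not tested. Cluster 9 held 41 of its 43 cells in Mural3 and was not compared.

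**Figure D4:**
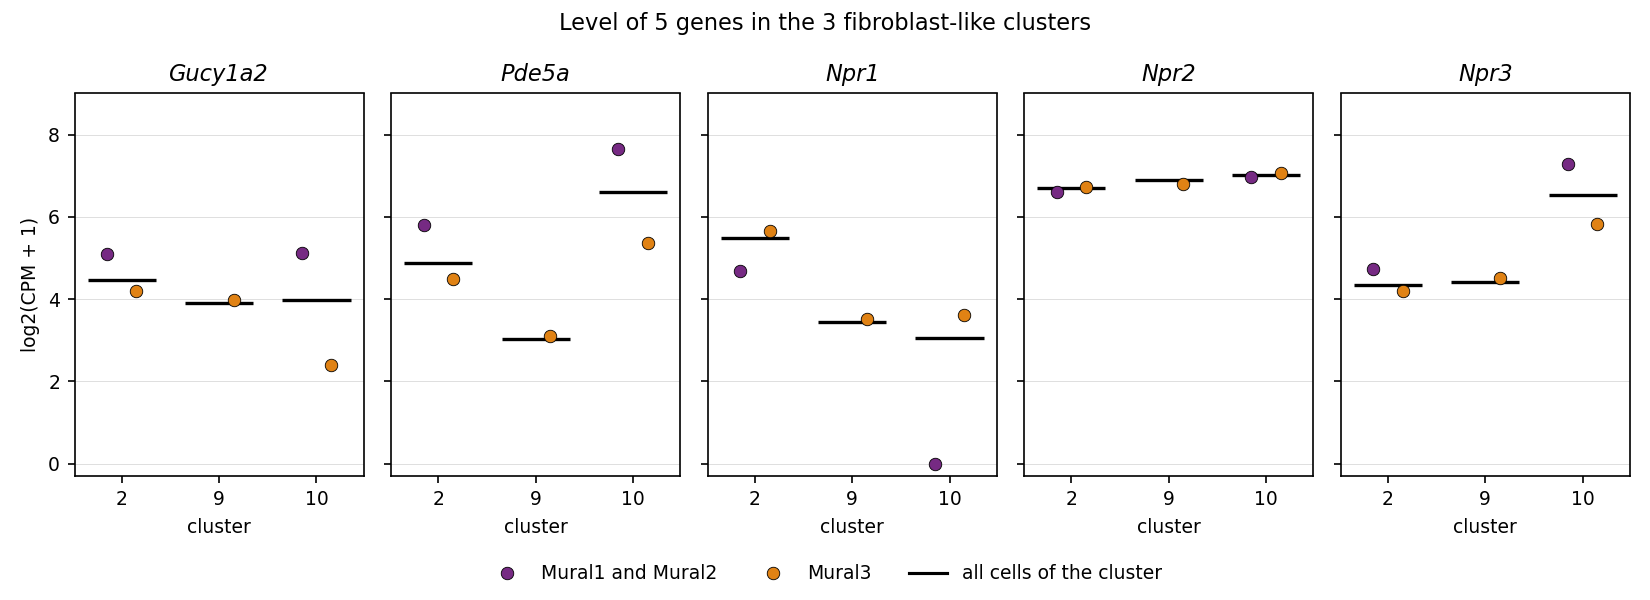
Level of 5 genes, as log2(CPM + 1), in the 3 fibroblast-like clusters; bars are all cells of a cluster and points the cells of Mural1 with Mural2 or of Mural3. Pde5a and Npr3 are highest in cluster 10 (96.4 and 91.4 CPM) and Npr1 in cluster 2 (44.2 CPM), while Npr2 spans 104 to 129 CPM.

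The list of 80 genes of this system, sorted by role, places the 6 genes among their partners. Across the 7 comparisons 21 of the 80 passed in at least 1, and 28 of the 80 stayed under 10 CPM in every named class. In the order used above, the counts higher and lower in the first side were 6 and 8, 7 and 2, 2 and 0, 4 and 6, 6 and 7, 11 and 0, and 1 and 0. Of all genes 4.24% and 4.62% passed in the whole-sort comparisons in either direction. Of the 10938 genes that the clustering had not used, 0.905%, 3.93%, 4.28%, 3.06% and 0.146% passed in the others. The median log2 difference of the list was -0.04 for Cldn5-eGFP cells against Mural1 and Mural2, where that of all genes was -0.02, and 0.58 against Mural3, where that of all genes was 0.44. It was 0.63 beside 0.48 for general capillary- against aerocyte-like cells, -0.03 beside -0.14 against pericyte-like cells, 0.39 beside 0.71 for pericyte- against smooth muscle-like cells, 0.82 beside 0.52 for both against fibroblast-like cells and 0.01 beside 0.12 between the fibroblast-like sets.

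Of the 3 nitric oxide synthases none passed in any comparison. Nos2, the inducible form, was highest in lymphatic-like cells at 49.9 CPM, 60.3% of it from 1 cell, and stood at 15.5 CPM in general capillary-like cells. Nos1, the neuronal form, did not exceed 2.21 CPM. Among the 22 genes that control the synthase, Cav1, the caveolin that binds Nos3, was 3451 CPM in general capillary-like, 2523 in aerocyte-like and 1624 in smooth muscle-like cells, against 86.8 in pericyte-like cells. Ddah1, which degrades an endogenous inhibitor of the synthases, was higher in aerocyte-like cells at 524 CPM than in general capillary-like cells at 278 CPM, and 9.53 CPM in pericyte-like cells. Nostrin, which binds Nos3 and controls where it sits in the cell, was almost level over general capillary-, aerocyte- and pericyte-like cells at 643, 652 and 629 CPM, and 11.2 CPM in smooth muscle-like cells. In pericyte-like cells it was 496 CPM in Mural1 and 739 in Mural2, while the 12 endothelial markers summed to 706 CPM there against 28775 in general capillary-like cells. Slc7a2, a carrier of the substrate arginine, was 277 CPM in smooth muscle-like cells and 9.85-fold higher there than in pericyte-like cells.

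In the soluble cyclase group 3 of its 4 genes passed as lower in Cldn5-eGFP cells against Mural1 and Mural2 and in general capillary- against pericyte-like cells. Again 3 passed as higher in pericyte- against smooth muscle-like cells and in the pooled mural classes against fibroblast-like cells. They were the same 3 each time, Gucy1a2, Gucy1a3 and Gucy1b3. Gucy1a3 was 770-fold and Gucy1b3 185-fold higher in pericyte-like than in general capillary-like cells. Between the fibroblast-like sets Gucy1a3 alone of the 80 passed, at 177 CPM against 16.1. It was 320 CPM in Mural1, 65.3 in Mural2 and 16.1 in Mural3, and without Mural1 it had a log2 difference of 2.02 with 22.4% of cells and no longer passed. The pericyte markers given above were also highest in Mural1, and their part was not tested.

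Ligands of the receptors were all but absent from these cells. Nppa, Nppb and Nppc, which encode the atrial, brain and C-type peptides, reached at most 1.19, 6.68 and 4.70 CPM in any named class, and Ostn, a peptide that binds Npr3, 0.0829 CPM. At least 98.4% of the reads in the class with the highest level came from 1 cell for each. Of these 4, none was within the rule for naming, and they were chosen after their values had been seen. Among the genes that process or degrade the peptides, Mme (neprilysin) passed once, 80.0-fold higher in Mural3 than in Cldn5-eGFP cells at 63.2 CPM. Ide, another protease that cleaves the peptides, reached 93.9 CPM in chondrocyte- or perichondrial-like cells, Furin 91.8 CPM in pericyte-like cells and Corin, which activates the atrial peptide, 49.8 CPM in smooth muscle-like cells, and none of these 3 passed in any comparison. Beside the 3 receptors, no other membrane cyclase exceeded 2.78 CPM, the level of Gucy2e in smooth muscle-like cells.

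The effectors of cyclic GMP differed between the mural types. Prkg1, the kinase that cyclic GMP activates, was 279 CPM in pericyte-like, 107 in smooth muscle-like and 16.1 in general capillary-like cells, and its substrate Vasp was 305, 84.1 and 33.0 CPM. Both were higher in pericyte-like than general capillary-like cells, by 17.3-fold and 9.24-fold. Of the 17 effectors 4 passed as higher in smooth muscle-like than pericyte-like cells and none as lower. Mrvi1, a kinase substrate at the calcium store, was 376 CPM against 9.18, and Kcnmb1, the beta subunit of the large-conductance potassium channel, 383 CPM against 50.5. Rgs2, which dampens G protein signals, was 713 CPM against 28.0, and Ppp1r12a, the targeting subunit of myosin phosphatase, 745 CPM against 156. Against fibroblast-like cells 5 effectors passed as higher in the pooled mural classes: Kcnmb1, Mrvi1, Ppp1r12a, Prkg1 and Vasp.

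The phosphodiesterases were highest in different classes. Where Pde5a led in pericyte-like cells, Pde9a, also specific for cyclic GMP, was 218 CPM in general capillary-like and 198 CPM in aerocyte-like cells, and 6.42-fold higher in general capillary- than pericyte-like cells, a call lost without Mural2 (log2 difference 1.41). Pde3a, which cyclic GMP inhibits, was 132 CPM in pericyte-like, 96.3 in general capillary-like and 86.2 in smooth muscle-like cells. At 12.4 CPM in aerocyte-like cells, Pde3a was the only gene of the 80 beside Npr3 to pass between the capillary types, 7.74-fold higher in general capillary-like cells. Pde2a, which cyclic GMP stimulates, reached 625 CPM in lymphatic-like cells, 28.8% of it from 1 cell, and 0 reads in aerocyte-like cells. Pde1b was 77.1 CPM in smooth muscle-like cells and 12.3-fold higher there than in pericyte-like cells. In the whole-sort comparisons Cav1, Ddah1, Nostrin and Pde9a passed as higher in Cldn5-eGFP cells than in Mural1 and Mural2, by 4.23-fold, 25.3-fold, 5.92-fold and 8.32-fold. Prkg1, Rgs2 and Slc7a2 passed as lower, 5.09-fold, 5.82-fold and 24.7-fold. The calls of Cav1 and Prkg1 were lost without Mural1 (log2 differences 1.87 and -1.99) and that of Rgs2 without Mural2 (18.0% of cells). Against Mural3, Cav1, Ddah1, Nostrin, Pde3a and Pde9a passed as higher, and that of Pde9a was lost without EC2 or without EC3 (log2 differences 1.99 and 1.80).

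**Figure D5:**
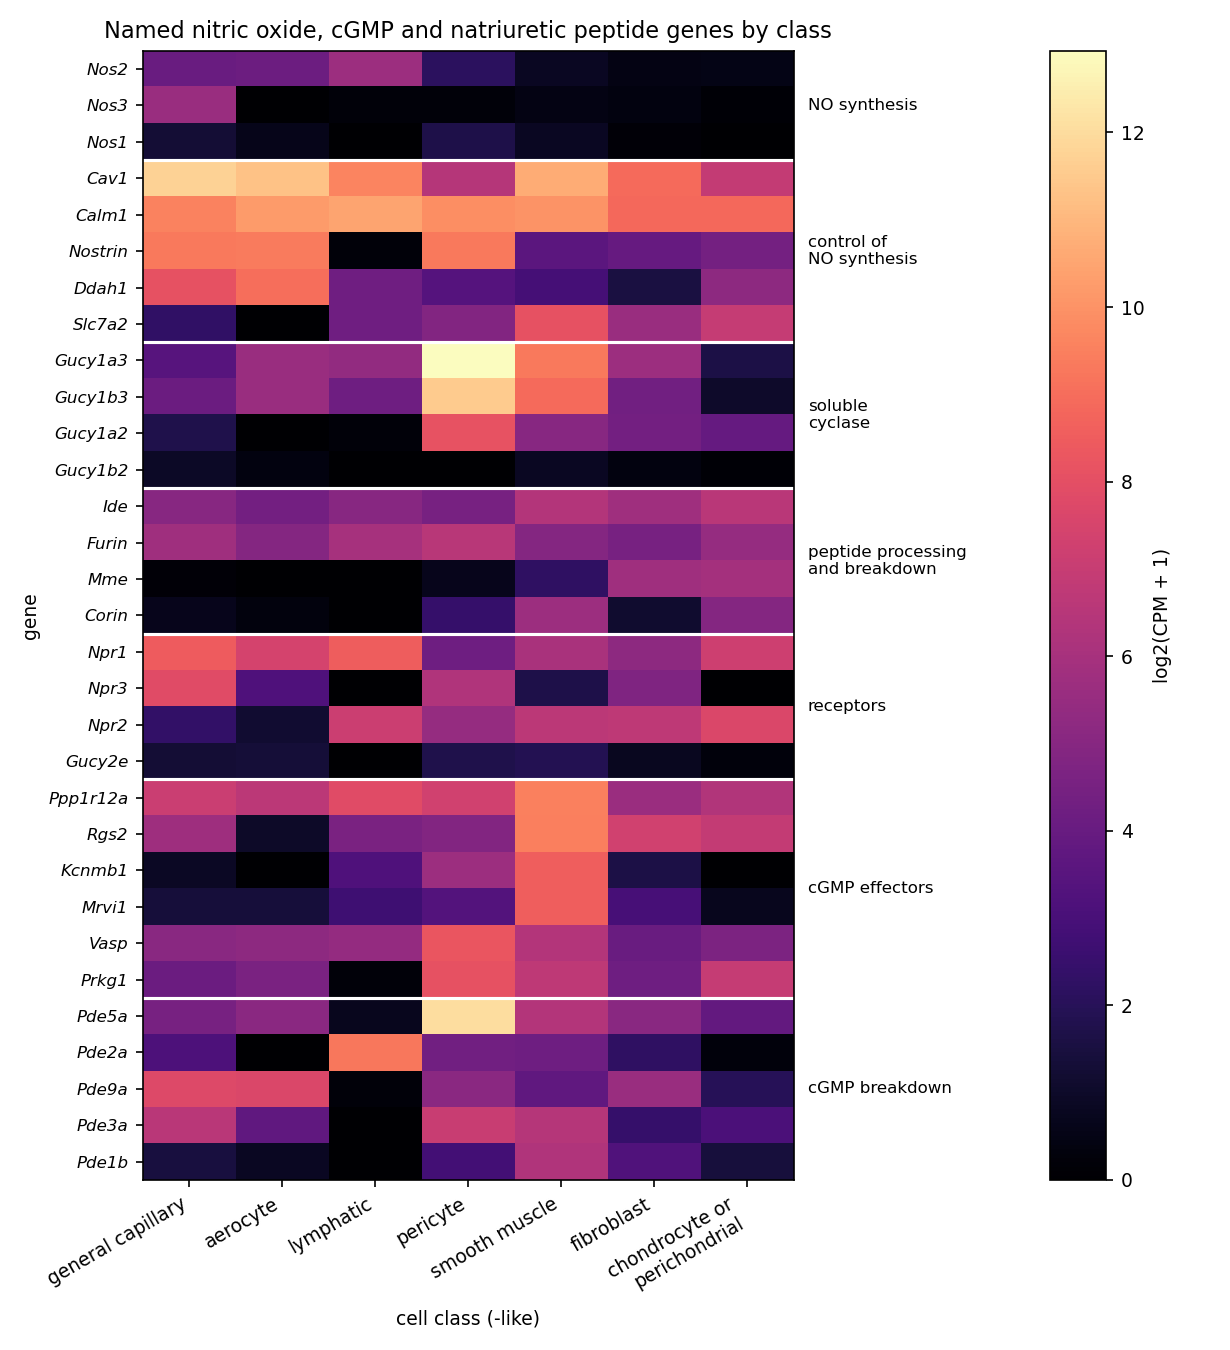
Level, as log2(CPM + 1), of 31 named genes of the system in the 7 classes, grouped by role. Gucy1a3, Gucy1b3, Gucy1a2 and Pde5a are brightest in pericyte-like cells (Gucy1a3 7832 CPM), Cav1 in general capillary-like cells (3451 CPM) and Ppp1r12a, Rgs2, Kcnmb1 and Mrvi1 in smooth muscle-like cells (376 to 745 CPM).

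How often members were read in the same cell was counted after thinning, as a description only, since depth and sparse reads both set it. Of the 658 general capillary-like cells 159 (24.2%) had a read of none of Nos3, Npr1 and Npr3, 302 (45.9%) of 1, 172 (26.1%) of 2 and 25 (3.80%) of all 3. Npr3 was read in 39.1% of the cells with Nos3 and 36.2% of those without, and in 38.9% of the cells with Npr1 and 33.3% of those without. Npr1 was read in 65.2% of the cells with Nos3 and 58.0% of those without. In pericyte-like cells 42 of the 66 cells with Pde5a also had a read of Gucy1a2 and 17 of Npr3. In fibroblast-like cells Npr2 was read in 50.0% of the cells with Npr1 and 50.6% of those without, and in 47.4% of the cells with Pde5a and 51.2% of those without.

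Genes with the most similar profile were sought over 14 units, each a named class in a column set with at least 10 cells, by Pearson's r of log2(CPM + 1) among 8347 genes with at least 50 CPM in a unit. The units share sets and classes, so these are descriptions. For Nos3 they were Grrp1 (0.996), Dll1, a Notch ligand (0.988), and Nxpe2 (0.960), and for Npr1 Celsr2 (0.947), Srgap2 (0.926) and B4galt4 (0.924). The profile of Npr3 was matched least closely, with Elmsan1 (0.877), Acy3 (0.875) and Tmcc1 (0.869). Gucy1a2 was closest to Nr1h3 (0.978), Afap1l2 (0.977) and the transcription factor Tbx4 (0.976), and Pde5a to Arhgap9 (0.954), Pdzd2 (0.953) and Rassf6 (0.946). Npr2 was closest to the protease gene Htra1 (0.964), the galectin gene Lgals1 (0.961) and Rcn3 (0.960).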

How the data were processed

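Single-cell SMART-seq2 libraries of 1504 sorted lung cells were used. The authors deposited raw read counts per gene and cell, aligned with STAR 2.4.2a to mm10 per the submitters' processing notes. How reads were assigned to genes is not given in the sources used here. The authors also deposited a table of scores, which are the counts of a cell scaled to 500000 and rounded, used here only as an alternative. The eGFP row was left out, leaving 21947 genes. All cells held at least 50000 reads, so none was removed. Doublets were not removed; cells with reads of at least 5 endothelial and at least 5 mural or fibroblast markers after thinning were left out in an alternative.

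Cells were clustered with scanpy 1.11.5 and leidenalg 0.10.2 (2000 variable genes, 30 components, 15 neighbours, resolution 1, seed 1) on 11009 genes, and 10938 genes, the 80-gene list among them, were held out. A cluster took the name of the marker list farthest above its mean over clusters if at least 40% of marker and cell pairs had a read, and stayed unnamed when the alveolar epithelial or leukocyte list reached 50%. These naming thresholds and the comparisons without the cell richest in a gene were chosen after the files had been seen. The 6 genes, the gene lists and the markers were chosen with earlier results of these data known. Genes of the list were named if they were 1 of the 4 highest of their role or passed the size rule in a comparison, and for likeness the 3 closest genes were named. For the size rule, fewer than 3 reads on a side counted as 3. Alternatives were TMM factors (edgeR 4.0.16, R 4.3.3), median-ratio factors, means over cells, the scores, other folds and filters, other cluster settings and each column set left out. The size rule was also run on simulated reads. There a gene was held by the same share of cells on both sides, with Poisson reads in those cells. That setting does not cover genes with many of their reads in 1 cell. Gene positions and lengths came from the GENCODE annotation of GRCm38, and promoter windows from RefSeq.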

Additional observations from a re-analysis of the deposited data

How the results depend on the processing

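The number of the 6 genes past the size rule differed by more than 1.5 times from the value given in 7 alternative counts and lay within 1.5 times of it in the other 81. A fold of 4 with no filter on level or share of cells gave 5 genes for Cldn5-eGFP cells against Mural3, 3 for general capillary- against aerocyte-like cells and 5 for general capillary- against pericyte-like cells. A fold of at least 2 gave 2 genes for general capillary- against aerocyte-like cells and 1 between the fibroblast-like sets. With each column set left out in turn, the count ranged from 1 to 2 for pericyte- and smooth muscle-like against fibroblast-like cells (1 without Mural3, Gucy1a2 lost) and from 0 to 1 between the fibroblast-like sets (1 without Mural2, Pde5a gained). No called gene turned its direction under any alternative run. The median log2 difference of all genes moved by more than 0.1 under TMM scaling in 5 comparisons: by -0.42 for Cldn5-eGFP cells against Mural3, -0.28 for general capillary- against aerocyte-like cells, 0.16 for general capillary- against pericyte-like cells, -0.29 for pericyte- against smooth muscle-like cells and -0.48 for both against fibroblast-like cells. The number of the 6 genes past the rule was the same under TMM and median-ratio scaling in all 7 comparisons. Cluster resolutions of 0.5 and 2 and another seed moved the highest class level of none of the 6 genes by more than its spread over column sets. Another thinning seed left the 8 counts of cells with reads of both genes of a pair within their intervals. Unthinned, 5 of the 8 moved, to 80 cells for Nos3 with Npr1 and 203 for Npr1 with Npr3 in general capillary-like cells, and in fibroblast-like cells to 59 for Npr1 with Npr2, 41 for Npr2 with Npr3 and 62 for Pde5a with Npr2. Unthinned, 43.8% of general capillary-like cells had a read of Npr3. By the longest transcript in place of all exons the levels per kilobase were 87.2 CPM for Gucy1a2 and 556 for Pde5a in pericyte-like cells and 33.3 for Npr3 in general capillary-like cells. The cells per class limit the shares most in the 22 lymphatic-like cells. No paired analysis was possible because the replicate numbers were given in accession order and no comparison rests on a test.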
